A study of Mus musculus with 6 samples.

Results

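The genes that make cholesterol and fatty acids were examined in the lateral septum after long olanzapine feeding. They were taken by symbol, 41 genes of the 35415 in the deposited tables, and all 41 had enough counts to be tested. They comprise 8 genes of the mevalonate pathway, 11 of the steps from squalene to cholesterol, 7 that control the sterol regulatory element-binding proteins (SREBPs), 4 of sterol handling inside the cell, 5 of fatty acid synthesis and 6 of fatty acid desaturation and elongation. At an adjusted p under 0.05, 0 of the 41 were called different between the olanzapine and control pools, where 2.32% of all tested genes were. For 40 of them the 95% interval of the fold change stayed within 1.68-fold in either direction.

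The data were 6 RNA-seq libraries of the lateral septum from wild-type female C57BL/6 mice, received at about 8 weeks of age and acclimatized for 1 week. The olanzapine mice, whose columns carry the label MetS, ate maintenance feed with olanzapine, an atypical antipsychotic, at 50 mg per kg of feed for 12 weeks. The control mice ate maintenance feed. Each library came from the dissected septum of 3 pooled mice, so n = 3 pools per group throughout and the p-values measure the spread between pools, not between single mice. In such whole tissue, fewer cells of a type and less RNA per cell cannot be told apart.

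Cholesterol is built from acetyl-CoA by way of mevalonate, the isoprenoids, squalene and lanosterol. The brain makes its own, because the cholesterol of the blood does not cross the blood-brain barrier, and much of it lies in myelin. Synthesis is set by feedback. When membrane sterol is low, SCAP carries the SREBP precursors to the Golgi, where the proteases encoded by Mbtps1 and Mbtps2 release a transcription factor that activates the genes of sterol and fatty acid synthesis. When sterol is high, the INSIG proteins hold SCAP back. SREBPs bind the sterol regulatory element (SRE) of their target promoters, often near a CCAAT box, the site of the factor NF-Y.

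Promoter windows from 250 bases before to 50 bases after each annotated start were taken from RefSeq (build GRCm38.p6) and matched 33 of the 41 genes, with 42 windows. Fads1, Fdft1, Fdps, Npc1, Scd1, Scd2, Sqle and Stard4 had no window among those searched. For the members, the windows of a whole chromosome were left out of the search. Both strands were searched for an SRE, written TCACNCCAC, the CCAAT box (CCAAT), the GC box bound by Sp1 (GGGCGG) and the E-box CACGTG, and matches of different motifs overlapped in 0 of these windows. An SRE was found in 1 of the 42 windows (2.38%), that of Hmgcs1, against 1.24% of all 32851 windows. A CCAAT box stood in 27 of the 42 (64.3%), against 37.4% of all windows. A GC box stood in 29 (69.0%, against 35.7%) and the E-box in 7 (16.7%, against 7.15%). A match is a run of letters, not a measured binding site. Shown here are Hmgcs1, which has the SRE, Msmo1, a sterol enzyme whose olanzapine pools all lay above the control pools, and Srebf1, Soat1 and Acacb, which had the lowest fold changes of their role groups. Capitals mark the SRE and the CCAAT boxes, which read ATTGG where they lie on the other strand.
Hmgcs1 (chr13:119690101-119690400, plus strand): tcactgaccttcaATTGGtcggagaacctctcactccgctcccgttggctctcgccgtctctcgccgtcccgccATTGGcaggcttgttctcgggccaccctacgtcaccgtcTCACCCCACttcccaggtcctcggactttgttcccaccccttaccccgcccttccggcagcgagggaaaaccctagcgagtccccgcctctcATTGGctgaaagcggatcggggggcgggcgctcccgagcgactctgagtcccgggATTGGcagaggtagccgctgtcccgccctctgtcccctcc
Msmo1 (chr8:64733529-64733828, minus strand): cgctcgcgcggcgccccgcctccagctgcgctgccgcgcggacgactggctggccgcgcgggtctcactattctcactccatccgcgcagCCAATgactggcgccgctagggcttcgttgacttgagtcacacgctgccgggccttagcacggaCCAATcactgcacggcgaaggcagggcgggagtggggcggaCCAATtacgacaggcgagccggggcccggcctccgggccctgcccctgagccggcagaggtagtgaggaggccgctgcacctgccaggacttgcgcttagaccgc
Srebf1, the outermost of its 3 starts (chr11:60222532-60222831, minus strand): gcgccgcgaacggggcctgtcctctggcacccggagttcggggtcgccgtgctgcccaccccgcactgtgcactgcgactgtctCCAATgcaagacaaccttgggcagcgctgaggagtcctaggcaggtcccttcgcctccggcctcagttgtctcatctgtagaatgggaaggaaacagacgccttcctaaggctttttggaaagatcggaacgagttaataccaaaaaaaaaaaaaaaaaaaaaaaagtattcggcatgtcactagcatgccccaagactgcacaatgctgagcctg
Soat1 (chr1:156474279-156474578, minus strand): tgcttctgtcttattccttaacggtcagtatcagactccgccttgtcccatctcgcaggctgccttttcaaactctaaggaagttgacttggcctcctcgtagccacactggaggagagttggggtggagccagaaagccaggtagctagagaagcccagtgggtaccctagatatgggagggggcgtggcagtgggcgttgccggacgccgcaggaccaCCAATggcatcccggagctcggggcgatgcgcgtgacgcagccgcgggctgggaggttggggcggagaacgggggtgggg
Acacb (chr5:114165268-114165567, plus strand): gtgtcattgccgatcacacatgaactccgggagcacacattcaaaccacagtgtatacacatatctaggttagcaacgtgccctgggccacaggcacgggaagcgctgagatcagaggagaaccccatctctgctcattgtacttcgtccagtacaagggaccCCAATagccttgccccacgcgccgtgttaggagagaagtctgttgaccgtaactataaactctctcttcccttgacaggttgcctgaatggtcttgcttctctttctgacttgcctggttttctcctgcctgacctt
The SRE of Hmgcs1 begins 137 bases before the start of transcription, and its window holds 4 CCAAT boxes. The window of Msmo1 has 3 CCAAT boxes, and those of Srebf1, Soat1 and Acacb have 1 each.

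To set genes of different length side by side, levels were read as FPKM, a fragment count scaled to transcript length and to library depth. Scd2, the main stearoyl-CoA desaturase of the brain, led with a mean of 406 FPKM over the 6 pools, and its range did not reach that of any other member. Fads1 and Fads2, the delta-5 and delta-6 desaturases of polyunsaturated fatty acids, followed with 94.5 and 89.9 FPKM, and Scd1, a related stearoyl-CoA desaturase, with 74.0 FPKM. Among these, each gene overlapped the next in this order over the pools. Hmgcs1, which makes HMG-CoA, was the most abundant of the 19 sterol synthesis enzymes at 48.3 FPKM. The lowest levels were those of Hsd17b7, a sterol 3-keto reductase, at 2.28 FPKM and of Acacb, the acetyl-CoA carboxylase of the mitochondrial surface, at 1.42 FPKM. The mean of Scd2 was 285 times that of Acacb.

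**Figure D1:**
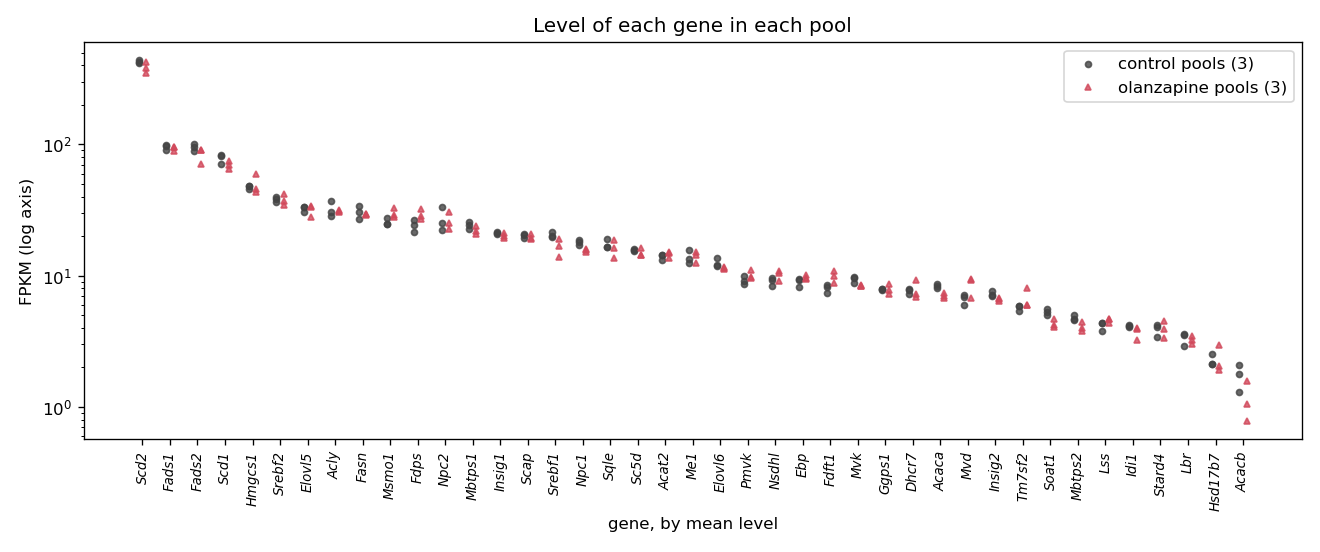
Level of each of the 41 genes in each pool as FPKM on a log axis, in the order of the mean level, with different symbols for the 3 control and the 3 olanzapine pools. Scd2 stands above all other genes in every pool, with a mean of 406 FPKM, and Acacb is the lowest by its mean of 1.42 FPKM.

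To compare the groups, edgeR's quasi-likelihood test was run on the 17255 genes with enough reads. At an adjusted p under 0.05, it called 2.32% of them (1.83% with more and 0.493% with less in the olanzapine pools), and 1.01% when a log2 fold change beyond 1 was also required. Of the 41 sterol and fatty acid genes, 0 were called under either rule, by edgeR, DESeq2 or limma. At an unadjusted p under 0.05 edgeR gave 10 of the 41, against 17.6% of all genes. These were 3 higher, against 9.19%, and 7 lower, against 8.4%. There were 0 higher and 5 lower without control replicate 1, 1 higher and 5 lower without control replicate 2, and 3 higher and 3 lower without control replicate 3, while DESeq2 gave 10 and limma on log2(FPKM + 1) gave 8. As normalized counts, the groups did not overlap in 13 genes, against 24.3% of all genes, with 3 above (13.3% of all genes) and 10 below (11% of all genes). The median log2 fold change over the 41 genes was -0.07, beside 0.0039 over all tested genes, and -0.12 without olanzapine replicate 1. The standard errors ran from 0.07 to 0.26 with a median of 0.10.

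**Figure D2:**
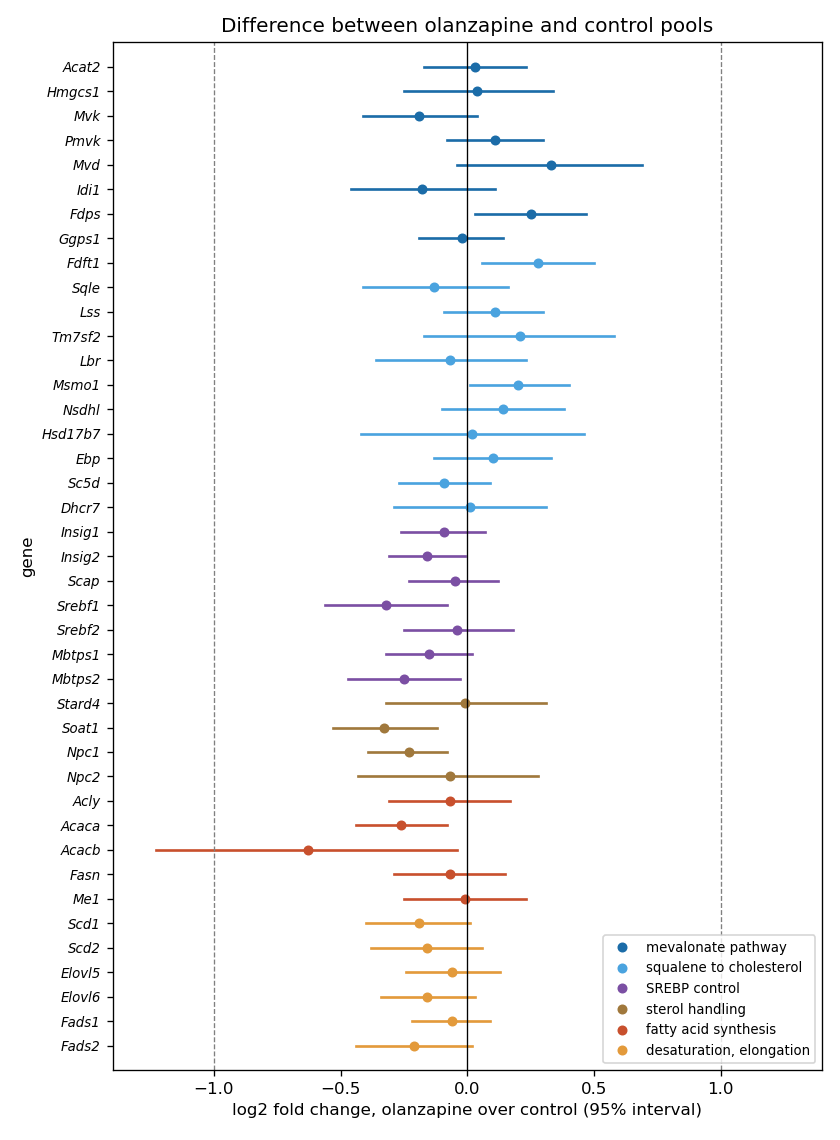
Log2 fold change of each gene, olanzapine over control, with its 95% interval from the edgeR fit over 3 pools per group, coloured by role. The estimates run from -0.63 in Acacb to 0.33 in Mvd, and Acacb alone has an interval that passes -1.

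The pools also differed in markers of other cells. Olanzapine pool 1 held 1323 summed FPKM of 10 markers of cortical glutamatergic neurons and the other 5 pools 546 to 668, and Slc17a7, the vesicular glutamate transporter, had 25735 normalized counts there and 417 to 2152 elsewhere. Choroid plexus markers varied within both groups, from 52.4 to 5409 summed FPKM in control and from 35.3 to 3487 in olanzapine. Hepatocyte markers other than Ttr, which the choroid plexus also makes, rose with olanzapine, 14 of 14 being called, from sums of 8.70 to 14.7 FPKM to sums of 148 to 193 FPKM. Of 9 nuclear-retained long noncoding RNAs, 6 were called higher (median log2 fold change 1.19). Over all tested genes 1.83% were called higher. Among the glia, 0 of 15 oligodendrocyte markers, 0 of 10 precursor markers and 0 of 12 astrocyte markers were called. At an unadjusted p under 0.05, 0 oligodendrocyte, 3 precursor and 4 astrocyte markers were lower, against 8.4% of all tested genes. The smallest adjusted p was 0.0525 among precursor markers, that of Pdgfra, and 0.0609 among astrocyte markers, that of Sox9. Of 10 microglia markers 0 were called. At an unadjusted p under 0.05, 2 were higher (9.19% of all tested genes were) and 3 lower (8.4% were). The groups did not overlap in 6 of the 10, against 24.3% of all tested genes. Microglia markers summed to 211 to 216 FPKM in control and 209 to 250 in olanzapine. Astrocyte markers summed to 1037 to 1105 FPKM in control and 935 to 1103 in olanzapine, and precursor markers to 158 to 173 and 148 to 181 FPKM. Markers of lateral septum neurons were present in every pool, with 0 of 15 called, 4 above 0 and 11 below (median log2 fold change -0.31). The median deviation of these markers from the control mean was -0.57, -0.29 and -0.01 in olanzapine pools 1 to 3, and 2 of them, Zic1 (-0.48) and Trpc4 (-0.49), were lower at an unadjusted p under 0.05. Their summed level, to which Sst contributes most, was 381 to 423 FPKM in control and 386 to 443 in olanzapine. Endothelial markers had 0 of 10 called and 10 of 10 below 0 (median log2 fold change -0.41), with sums of 112 to 124 FPKM in control and 122, 91.1 and 82.9 in olanzapine pools 1 to 3. Striatal neuron markers had 0 of 10 called and 10 of 10 above 0 (median 0.28), with sums of 530 to 948 FPKM in control and 557 to 1152 in olanzapine. Immediate early genes had 1 of 10 called and 10 of 10 above 0 (median 0.46), with 321 summed FPKM in olanzapine pool 1 and 129 to 195 in the other 5 pools. The part of these features in the values that follow was not tested.

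The mevalonate enzymes had values on both sides of 0, with a median log2 fold change of 0.04 and 5 of 8 above 0. Fdps, which makes farnesyl pyrophosphate, had 1253, 1405 and 1511 normalized counts without the drug and 1654, 1780 and 1526 with it in pools 1 to 3 of each group. Every olanzapine pool lay above every control pool, the nearest by little (log2 fold change 0.25, SE 0.10, adjusted p = 0.225). Mvd, which makes isopentenyl pyrophosphate, had 484, 413 and 490 normalized counts without the drug and 663, 615 and 459 with it. It overlapped through olanzapine pool 3 (log2 fold change 0.33, SE 0.16, adjusted p = 0.334). Mvk, the mevalonate kinase, gave 692, 666 and 610 normalized counts without the drug and 588, 569 and 574 with it. Its olanzapine pools all lay below the control pools (log2 fold change -0.19, SE 0.10, adjusted p = 0.369). For Hmgcs1, whose promoter holds the SRE, the pools gave 8062, 7529 and 7921 normalized counts without the drug and 9891, 7253 and 7081 with it. Olanzapine pool 1, where the cortical markers summed highest, was the highest of all 6 and the other olanzapine pools were the lowest. The log2 fold change of 0.04 (SE 0.13, adjusted p = 0.896) turned to -0.13 without olanzapine replicate 1. Idi1, the isopentenyl pyrophosphate isomerase, was at -0.18 without overlap, and at -0.09 without olanzapine replicate 3. Acat2, a thiolase, Pmvk, the phosphomevalonate kinase, and Ggps1, which makes geranylgeranyl pyrophosphate, lay between -0.02 and 0.11 and overlapped.

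The 11 enzymes from squalene to cholesterol had a median log2 fold change of 0.10, and 8 of them were above 0. Fdft1, the squalene synthase, had 3085, 3342 and 3433 normalized counts without the drug and 4515, 3886 and 3569 with it. The groups did not overlap, and olanzapine pool 1 was the highest (log2 fold change 0.28, SE 0.10, adjusted p = 0.189, and 0.18 on the log2 scale without olanzapine replicate 1). Its exons overlap those of Ctsb on the other strand of chromosome 14, so its counts are uncertain without the strand setting. Msmo1, the methylsterol monooxygenase with 3 CCAAT boxes in its window, was the most abundant of the 11. It had 2304, 2278 and 2481 normalized counts without the drug and 3025, 2554 and 2561 with it, again without overlap (log2 fold change 0.20, SE 0.09, adjusted p = 0.272, and 0.12 on the log2 scale without olanzapine replicate 1). Sqle, the squalene epoxidase, was the lowest by fold change and had 1797, 1775 and 2046 normalized counts without the drug and 2017, 1679 and 1456 with it. Olanzapine pool 1 lay among the controls and the other olanzapine pools below them (log2 fold change -0.13, SE 0.12, adjusted p = 0.649). The estimate was -0.26 without olanzapine replicate 1, -0.02 without olanzapine replicate 3 and -0.05 without control replicate 3. Dhcr7, which reduces 7-dehydrocholesterol to cholesterol, had a 95% interval of -0.29 to 0.31 around a log2 fold change of 0.01. The others were the lanosterol synthase Lss, the sterol reductases Tm7sf2 and Lbr, the demethylation enzymes Nsdhl and Hsd17b7, the isomerase Ebp and the desaturase Sc5d. They ranged from -0.09 to 0.21, and all 7 overlapped as normalized counts. The upper end was Tm7sf2, which was at 0.03 without olanzapine replicate 1. The lower end was Sc5d, which lay between -0.16 and -0.04 with any 1 pool left out.

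Of the 19 sterol synthesis enzymes, 10 had their highest normalized count in olanzapine pool 1 and 4 in olanzapine pool 2. The median deviation from the control mean over these enzymes, on the log2 scale, was 0.19 in olanzapine pool 1, and at most 0.01 in the other olanzapine pools. Their median log2 fold change was 0.04 with 13 of 19 above 0. It was 0.02 without olanzapine replicate 1 (10 of 19 above 0), 0.10 without olanzapine replicate 2 (13 of 19) and 0.12 without olanzapine replicate 3 (12 of 19).

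**Figure D3:**
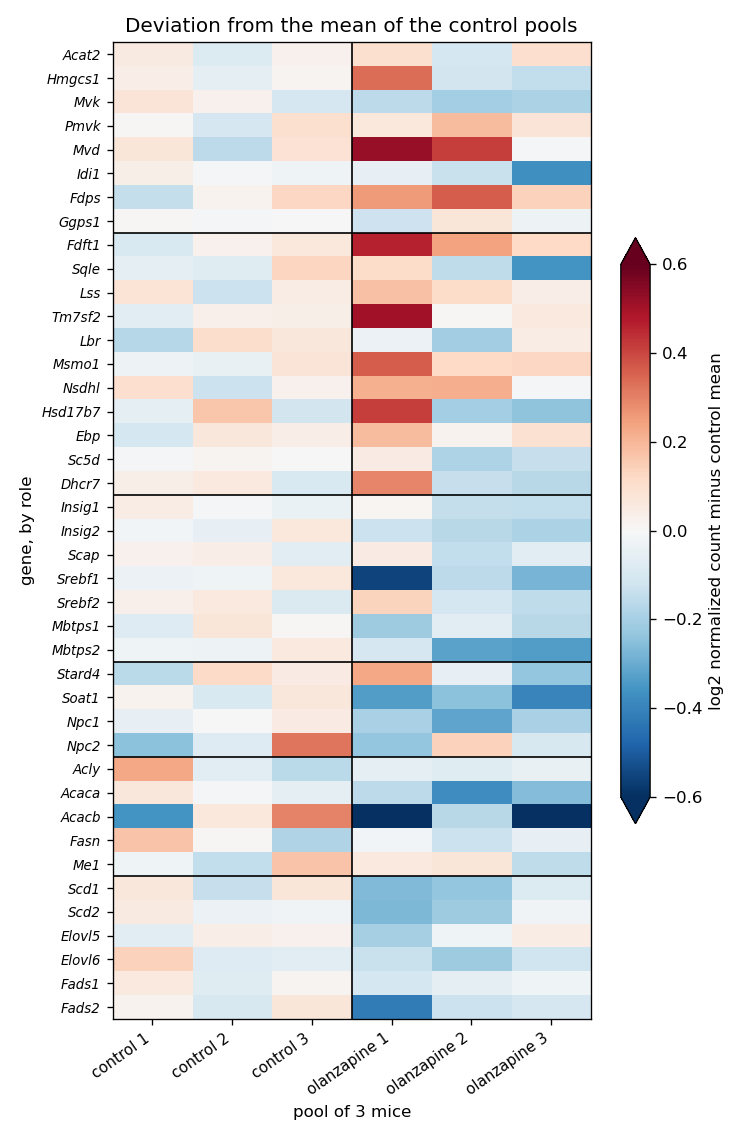
Log2 normalized count of each gene in each pool minus the mean of the 3 control pools, with genes in rows grouped by role and pools in columns. Over the 19 sterol enzymes the median of olanzapine pool 1 is 0.19, and over the 22 other genes the medians of the olanzapine pools are -0.15, -0.14 and -0.15.

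All 22 members outside sterol synthesis had a log2 fold change below 0 in this fit, where 49.3% of all tested genes did, and none was called. Their median was -0.15, with median deviations from the control mean of -0.15, -0.14 and -0.15 in olanzapine pools 1 to 3. The count is a description, since genes of the same pools are not independent. On the FPKM scale 20 of the 22 were below 0, and with any 1 pool left out 19 to 21 were. In 8 of the 22 the olanzapine pools all lay below the control pools, where 11% of all tested genes did. Further genes of these pathways, read below, did not all share the direction. Above 0 were 7 of 12 other sterol handling genes and 7 of 12 other fatty acid synthesis genes. So were 4 of 12 other SREBP regulators and 4 of 15 other desaturation and elongation genes.

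The SREBP control genes had a median log2 fold change of -0.15, with 7 of 7 below 0. Srebf1 encodes the SREBP that favours fatty acid genes, and it had 3828, 3858 and 4102 normalized counts without the drug and 2674, 3523 and 3236 with it. All olanzapine pools lay below all control pools, with pool 1 the lowest (log2 fold change -0.32, SE 0.10, adjusted p = 0.164). Its 95% interval was -0.56 to -0.08, and its exons overlap those of Rai1 on the other strand. Srebf2, whose protein favours sterol genes, had 8628, 8777 and 7938 normalized counts without the drug and 9270, 7837 and 7598 with it. Those groups overlapped (log2 fold change -0.04, SE 0.09, adjusted p = 0.876). Per length Srebf2 was the more abundant, with group means of 38.2 and 37.8 FPKM against 20.3 and 16.6 FPKM for Srebf1. The FPKM ratio of Srebf2 to Srebf1 was 1.97, 1.99 and 1.69 in control and 3.03, 1.94 and 2.05 in olanzapine, highest in olanzapine pool 1 (exact permutation test, two-sided, p = 0.3, where 0.1 is the smallest that 3 against 3 can give).

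Mbtps2, the site-2 protease, had 881, 877 and 933 normalized counts without the drug and 836, 718 and 710 with it. The groups were separate (log2 fold change -0.25, SE 0.10, adjusted p = 0.231). Insig2, a retention protein of the endoplasmic reticulum, had 1988, 1943 and 2100 normalized counts without the drug and 1837, 1792 and 1764 with it. It too was lower in every olanzapine pool than in any control pool (log2 fold change -0.16, SE 0.07, adjusted p = 0.255). Insig1, itself an SREBP target, had 2287, 2209 and 2157 normalized counts without the drug and 2233, 2009 and 2001 with it. It overlapped through olanzapine pool 1, and its 95% interval was -0.26 to 0.07 (log2 fold change -0.09, SE 0.07, adjusted p = 0.552, and -0.15 on the log2 scale without olanzapine replicate 1). Scap and Mbtps1, the SREBP escort and the site-1 protease, had log2 fold changes of -0.05 and -0.15 and overlapped.

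In sterol handling, Soat1, which esterifies cholesterol for storage, had 1018, 942 and 1051 normalized counts without the drug and 795, 846 and 762 with it. The groups were well apart, and the adjusted p was the smallest of the 41 (log2 fold change -0.33, SE 0.09, adjusted p = 0.109). Its 95% interval was -0.53 to -0.12, and the estimate stayed between -0.37 and -0.28 with any 1 pool left out. Npc1, which moves cholesterol out of lysosomes, had 3838, 3975 and 4115 normalized counts without the drug and 3477, 3195 and 3468 with it. Again no pool overlapped (log2 fold change -0.23, SE 0.07, adjusted p = 0.134). Npc2, its soluble partner and the most abundant of the 4 at 26.5 FPKM, had 2880, 3235 and 4265 normalized counts without the drug and 2907, 3757 and 3195 with it. Both groups spread widely, and the log2 fold change of -0.07 (SE 0.15, adjusted p = 0.848) turned to 0.11 without control replicate 3. Stard4, a carrier of free cholesterol between membranes, had 741, 897 and 857 normalized counts without the drug and 975, 800 and 705 with it. Its olanzapine pools held both the highest and the lowest value (log2 fold change -0.01, 95% interval -0.32 to 0.31).

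In fatty acid synthesis the genes with the highest levels overlapped between the groups. Acly, which makes cytosolic acetyl-CoA from citrate, had 11550, 9369 and 8794 normalized counts without the drug and 9470, 9339 and 9550 with it. Control pool 1 stood above the other 5 pools (log2 fold change -0.07, SE 0.10, adjusted p = 0.787). Fasn, the fatty acid synthase, had 13987, 12481 and 10947 normalized counts without the drug and 12269, 11364 and 11992 with it. All its olanzapine pools lay within the control range, and its 95% interval was -0.29 to 0.15 (log2 fold change -0.07, SE 0.10, adjusted p = 0.757). Acaca, the cytosolic carboxylase that makes malonyl-CoA, had 3671, 3469 and 3358 normalized counts without the drug and 3135, 2703 and 2916 with it. Its groups did not overlap (log2 fold change -0.26, SE 0.08, adjusted p = 0.139). Acacb, whose malonyl-CoA restrains fatty acid entry into mitochondria, had 490, 657 and 774 normalized counts without the drug and 392, 560 and 286 with it. It overlapped through olanzapine pool 2 and had the largest standard error of the 41 (log2 fold change -0.63, SE 0.26, adjusted p = 0.253). On the log2(FPKM + 1) scale, which compresses differences at so low a level, limma gave -0.36. Me1, a malic enzyme that supplies NADPH, had 1951, 1795 and 2236 normalized counts without the drug and 2069, 2087 and 1786 with it, and overlapped (log2 fold change -0.01, 95% interval -0.25 to 0.23).

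The desaturases and elongases had a median log2 fold change of -0.16, with 6 of 6 below 0 and 0 at an unadjusted p under 0.05. Scd2 had 94866, 89253 and 90195 normalized counts without the drug and 75944, 78965 and 90067 with it. Olanzapine pool 3 lay among the controls and the others below them (log2 fold change -0.16, SE 0.09, adjusted p = 0.416). Scd1 had 15605, 13548 and 15678 normalized counts without the drug and 12410, 12690 and 14074 with it, and it overlapped in the same pool (log2 fold change -0.19, SE 0.09, adjusted p = 0.300). These close copies on chromosome 19 may share reads, so how their counts divide is uncertain. The FPKM ratio of Scd2 to Scd1 was 5.45 ± 0.37 in control and 5.54 ± 0.13 in olanzapine (SD, n = 3 pools each, exact permutation test, two-sided, p = 0.7).

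Fads2 had 11115, 10252 and 11500 normalized counts without the drug and 8175, 10010 and 10192 with it. Its groups did not overlap as normalized counts, with olanzapine pool 1 far the lowest, but did as FPKM (log2 fold change -0.21, SE 0.10, adjusted p = 0.316, and -0.12 on the log2 scale without olanzapine replicate 1). Fads1 had 13894, 12688 and 13480 normalized counts without the drug and 12423, 12837 and 13112 with it, with overlap (log2 fold change -0.06, SE 0.07, adjusted p = 0.688). The FPKM ratio of Fads1 to Fads2 was 1.03, 1.02 and 0.962 in control and 1.25, 1.05 and 1.06 in olanzapine, without overlap (exact permutation test, two-sided, p = 0.1, the smallest possible, and 0.6 with Benjamini-Hochberg adjustment over 6 gene pairs). Elovl6, which lengthens palmitate to stearate, had 3235, 2780 and 2812 normalized counts without the drug and 2677, 2529 and 2704 with it. The groups were separate by a narrow margin (log2 fold change -0.16, SE 0.08, adjusted p = 0.349, and -0.09 on the log2 scale without control replicate 1). Elovl5, which lengthens polyunsaturated fatty acids, had 3878, 4158 and 4119 normalized counts without the drug and 3532, 3979 and 4183 with it and overlapped (log2 fold change -0.06, SE 0.08, adjusted p = 0.773). The FPKM ratios of Insig1 to Insig2, Acaca to Acacb and Elovl5 to Elovl6 gave exact permutation p values of 0.6, 0.4 and 0.5 (two-sided), and the adjusted value was 0.7 for every pair but Fads1 and Fads2.

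**Figure D4:**
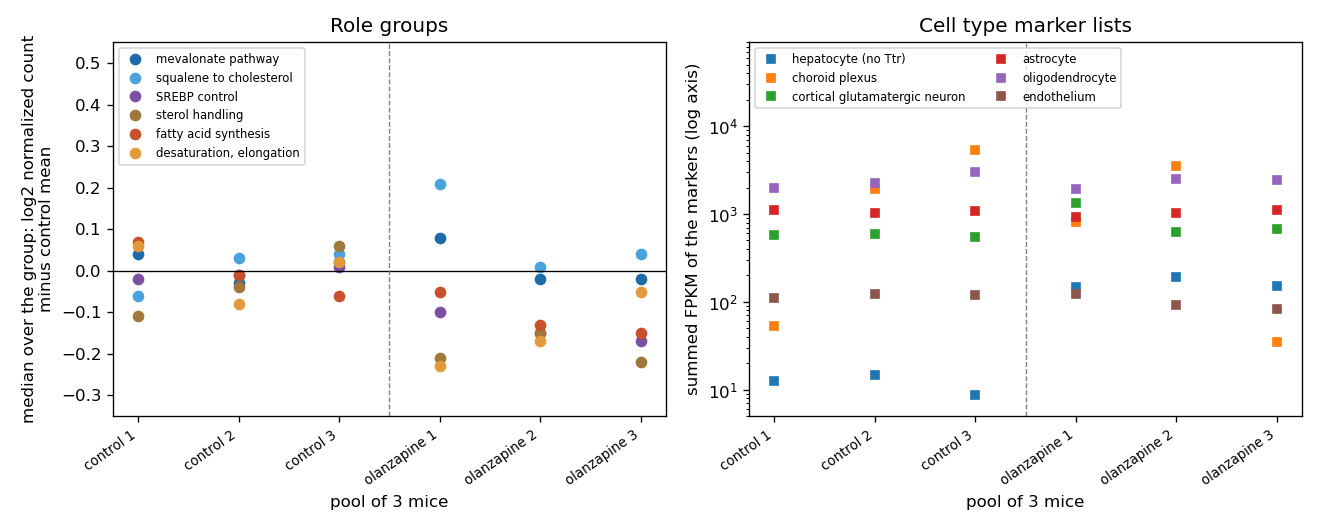
Left, median over each role group of the log2 normalized count minus the control mean, per pool, with squalene-to-cholesterol genes at 0.21 in olanzapine pool 1. Right, summed FPKM of the marker lists per pool on a log axis, with hepatocyte markers other than Ttr higher in the 3 olanzapine pools and cortical markers highest in olanzapine pool 1.

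The wider pathway was read from 5 further lists of 65 genes, of which 61 could be tested. edgeR called 0 of the 61, while 6 were higher (9.19% of all tested genes were) and 3 lower (8.4% of all) at an unadjusted p under 0.05, and the median log2 fold change was -0.01. Other sterol and isoprenoid synthesis genes ran from -0.13 in Nus1, a subunit of the dolichol-forming prenyltransferase, to 0.49 in Pdss1, which makes the side chain of coenzyme Q. In that list olanzapine pool 1 again had the highest median deviation, 0.22, beside 0.02 and 0.04 in the other olanzapine pools. Other SREBP regulators ran from -0.24 in Erlin2, an endoplasmic reticulum protein, to 0.34 in Tmem97, a sterol-regulated membrane protein. Sterol handling ran from -0.21 in Gramd1c, a sterol transfer protein, to 0.46 in Osbpl1a, an oxysterol-binding protein relative with 9234 normalized counts in olanzapine pool 1 and 4220 to 4878 in the other 5 pools. In fatty acid synthesis both ends belonged to the mitochondrial pathway, with Oxsm, its ketoacyl synthase, at -0.39. Mecr, its enoyl reductase, had 305, 325 and 382 normalized counts without the drug and 586, 485 and 422 with it. The groups did not overlap (log2 fold change 0.56, SE 0.16, adjusted p = 0.128), and DESeq2 called the gene (adjusted p = 0.0381). DESeq2 was read only for the highest and lowest gene of each wider list. Of the 61, Cyp46a1 in the sterol handling list had the smallest edgeR adjusted p (log2 fold change 0.27, SE 0.07, adjusted p = 0.093). Its groups did not overlap either. Desaturation and elongation ran from -0.46 in Elovl7 to 0.24 in Elovl1, both elongases.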

How the data were processed

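RNA was extracted with TRIzol from pooled lateral septum, and libraries were made with the VAHTS Universal V6 kit. Per the study's methods and the submitters' processing notes, the authors used fastp for trimming, HISAT2 for alignment to mm10 and HTSeq for counting, and deposited raw counts and FPKM per gene. The annotation and strand setting are not given in the sources used here, so genes that overlap others (14 of the 39 members looked up in GENCODE vM21) or have close copies are uncertain. Total counts ran from 38208153 to 39868872 per pool.

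Counts were normalized with TMM and tested with edgeR 4.0.16 (R 4.3.3), quasi-likelihood F test, with group as the only term, over genes passing filterByExpr (minimum count 10, minimum total 15), and p-values were adjusted by Benjamini-Hochberg over 17255 genes. Normalized counts are scaled by effective library size. A call needed an adjusted p under 0.05, or in addition a log2 fold change beyond 1 in size. The fits were tested on simulated data. Alternatives were DESeq2 1.42.0, RLE or upper-quartile factors, testing without a count filter, a floor of 50 on the mean count, a block on replicate number, limma 3.58.1 on log2 FPKM (pseudocount 1 or 0.1, filtered at a mean FPKM of 0.1, or unfiltered), and leaving out each pool.

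Members were named with every pool's value where the unadjusted p was under 0.05, where they were the most abundant, highest or lowest by fold change of a role group, or where they belonged to 1 of 6 related pairs. Of the wider lists, the highest and lowest were named, and Cyp46a1 for its adjusted p. The members and lists were chosen with earlier results of these data known, and the sum of hepatocyte markers without Ttr was added after the values were seen. Of the per-sample columns, 0 were left unused, and 0 rows had no gene name.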

Additional observations from a re-analysis of the deposited data

How the results depend on the processing

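The number of called members was 0 under each of the 9 alternative fits and each of the 6 fits that left out 1 pool. The lowest adjusted p of any member over these fits was 0.065, for Soat1 with DESeq2. With 1 pool left out, the median log2 fold change over the members lay between -0.12 and -0.05. With the replicate block 8 members had an unadjusted p under 0.05, 0 were called, and calls over all genes went from 401 to 140. Same-numbered pools did not deviate together (correlations -0.01, 0.07 and -0.25), and no pool correlated best with its own number. These correlations show no pairing by number, but they cannot exclude a shared batch. Calls over all genes numbered 1093 with DESeq2, 337 and 339 with limma and 240 with limma without a filter, and 131 to 508 with 1 pool left out.

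The sign of some log2 fold changes turned. The replicate block gave -0.00 for Dhcr7 and -0.01 for Hsd17b7. With limma on log2 FPKM, Me1 gave 0.01 with a pseudocount of 1, 0.02 with 0.1 and 0.01 without a filter, and Stard4 gave 0.01 in each. With 1 pool left out the log2 fold changes that turned had these ranges: Acat2 -0.00 to 0.10, Hmgcs1 -0.13 to 0.13, Ggps1 -0.08 to 0.02, Hsd17b7 -0.23 to 0.13, Dhcr7 -0.15 to 0.09, Srebf2 -0.13 to 0.02, Stard4 -0.15 to 0.09, Npc2 -0.19 to 0.11, Acly -0.14 to 0.06, Fasn -0.15 to 0.02, Me1 -0.08 to 0.09, Elovl5 -0.11 to 0.01, Gramd1c -0.47 to 0.02 and Elovl7 -0.84 to 0.01. The cause was not tested. With 3 pools per group, differences smaller than the intervals given were not detectable.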
